A study of Homo sapiens with 6 samples.

Results

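The longest TAD called after CTCF depletion in LNCaP cells spanned 13.8 Mb of chromosome 13, from 59.50 to 73.30 Mb (hg19), and 6 control TADs lay inside it. A TAD (topologically associating domain) is a stretch of chromosome whose parts contact each other more than they contact the surroundings. The members described here are the 401 bins of 40 kb from position 58480001 to position 74520000, of 75880 bins in the maps, and 399 of them had enough contacts to be used. The stretch was selected on the TAD calls of the same maps, so what follows describes those maps and tests nothing. LNCaP is an established prostate cancer cell line. Its cells received either a pool of non-targeting siRNAs (control siRNA) or a pool of 4 siRNAs against CTCF, with either pool at 20 nM, and were harvested 144 h after the first of their transfections. Every library of either group came from this 1 cell line and carried an siRNA transfection. Hi-C fixes chromatin, cuts it and ligates ends that lie close, so that each read pair records a contact between 2 positions. It gave 2 control and 4 CTCF siRNA libraries, which the authors pooled into 1 contact map and 1 TAD list per condition. There was therefore no replicate, and every error below covers counting only.

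CTCF is a zinc finger protein that binds a long DNA motif and, on chromatin, halts the cohesin complex as it extrudes loops. Many TAD boundaries lie at CTCF sites, and contacts across such boundaries rise when CTCF is removed from cells. Long stretches with few genes and low GC content tend to pack together in the inactive compartment of the nucleus, apart from gene-rich chromatin.

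The 4 siRNA sequences that separate the groups are given in the labels as follows, in lower case, without a statement of strand.
siRNA 1: gaugaagacugaaguaaug
siRNA 2: ggagaaagaagaagagua
siRNA 3: gaagaugccugccacuuac
siRNA 4: gaacagcccauaaacauag
The core of the CTCF motif, CCACNAGGG, was searched on both strands of GRCh37, and the 2 matches at the control boundaries inside the merged stretch and at its right end are shown with their surroundings, the core in capitals. Both lie on the minus strand and are written 5′ to 3′.
Boundary at 62.54 Mb (chr13:62546205-62546233): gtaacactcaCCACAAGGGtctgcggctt
Boundary at 73.32 Mb (chr13:73327020-73327048): agaaagcaatCCACAAGGGaatcattttg
Of the 11 bins at the edges of those control boundaries, 2 held a match. Of the edges of the merged TAD itself, the bin at 59.50 Mb held 2 matches, not shown, and that at 73.30 Mb held 0. Among the 399 usable region bins 38.6% (154) held one, against 54.7% of the usable bins of the genome. A match is a string of letters, and CTCF binding was not measured in these maps.

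The label gene-poor held against the annotation. The merged TAD overlapped 10 protein-coding genes, or 0.725 per Mb, against 3.37 per Mb on chromosome 13 and 7.09 per Mb in the genome. It also held 37 lncRNA genes and 42 pseudogenes. The longest stretch without a protein-coding gene ran for 2.47 Mb, from 67804578 to 70274725, between PCDH9 and KLHL1. GC content averaged 35.3% over the region bins, against 40.6% in the genome, and 10.9% of the bins of the genome had less. BglII sites, where the enzyme of this experiment cuts, numbered 11.3 per bin against 10.9.

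Contacts within the chromosome were fewer per bin here than elsewhere, and more so after CTCF depletion. The control map held 13657810 contacts within chromosomes and the CTCF siRNA map 56276578, which is 4.12 times as many. A usable region bin had a median of 149 contacts within the chromosome in control (lowest 35, highest 400) and 317 in CTCF siRNA (61 to 1244), 2.13 times as many. Counts over expected were also lower nearly everywhere in the region in CTCF siRNA. Values from balanced counts, in which every bin is scaled to the same total, are therefore given beside many of them. The insulation minima and the contact shares at gene starts were taken without balancing only, so their dependence on the scaling was not tested.

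In control cells the 13.8 Mb were divided among 7 TADs. From the left, the TAD at 58.18 to 61.02 Mb reached 1.52 Mb into the merged stretch and held PCDH17, a protocadherin of the neural cell adhesion family, DIAPH3, a formin that assembles actin filaments, and the start of TDRD3, a Tudor domain protein that reads methylated arginine. The first TAD wholly inside, at 61.02 to 62.54 Mb, held the rest of TDRD3, PCDH20, another protocadherin, and ENSG00000197991, which overlaps PCDH20 in position. The TAD at 62.54 to 64.70 Mb held only ENSG00000237378 and ENSG00000285566, both short. The TAD at 65.02 to 67.90 Mb held PCDH9, a 928 kb protocadherin gene, and the TAD at 68.18 to 70.02 Mb no protein-coding gene. KLHL1, which encodes a Kelch-like protein of neurons, lay in the TAD at 70.06 to 71.18 Mb. DACH1, a Dachshund family regulator of transcription, lay in the TAD at 71.18 to 73.30 Mb together with the end of MZT1, a small protein of the gamma-tubulin complex. These 6 inner TADs covered 11.64 Mb, or 84.3% of the merged TAD.

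**Figure D1:**
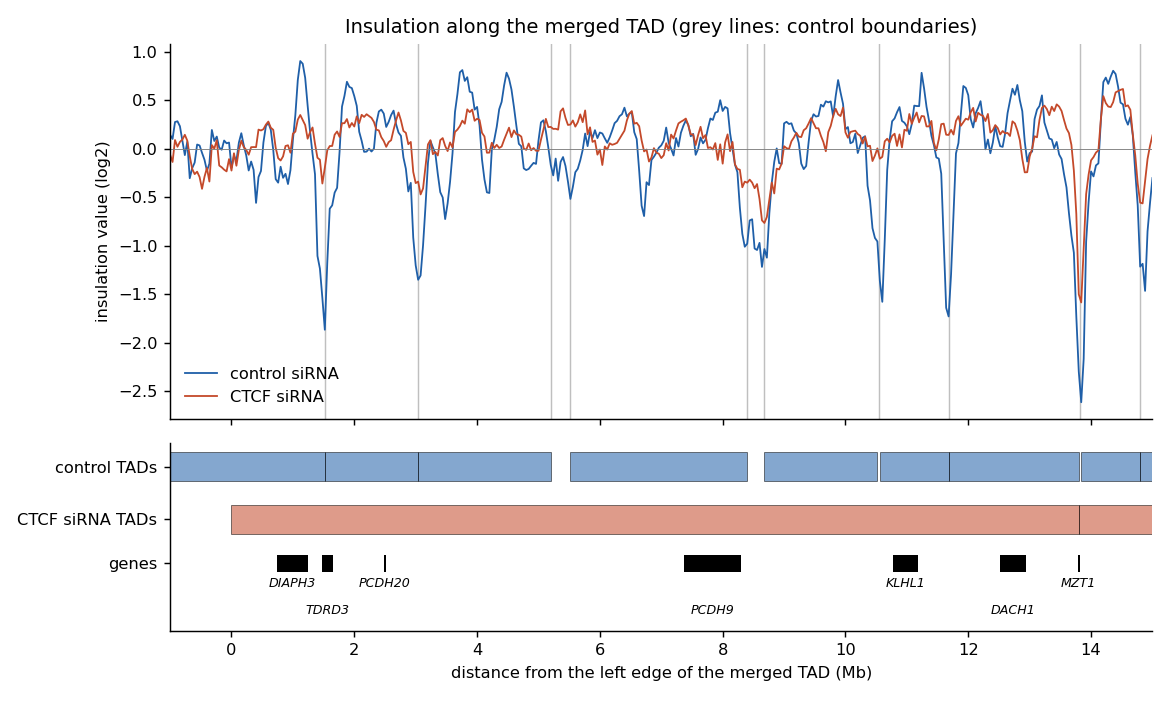
The insulation value of each 40 kb bin (log2, vertical axis) is plotted against distance from the left edge of the merged TAD (Mb) in control siRNA (blue) and CTCF siRNA (red), above the called TADs and the named genes. Control minima stand at most of the grey boundary lines, and in CTCF siRNA only the dip 8.68 Mb from the left edge stays below -0.5 between the edges.

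All 8 control boundaries inside the merged TAD had no CTCF siRNA boundary within 40 kb, which the choice of the stretch fixes, since the nearest was at least 1520 kb away. Over the genome, 47.4% of 3469 control boundaries had none. The insulation value, the log2 of contacts over expected across a bin relative to those within its 400 kb flanks, is low where a boundary separates its sides. Its median at the 8 boundaries was -1.19 in control and -0.15 in CTCF siRNA, and the median change was 0.89. At the 1475 lost boundaries of the genome with a value, the median change was 0.60 (interquartile range 0.35 to 0.85), and over all usable bins of the genome it was 0.02. The value rose by at least 0.5 at 6 of the 8, against 48.1% of 2990 control boundaries of the genome, and with flanks of 200 kb at 7 of the 8, against 50.2% of 2980. The 8 are all lost ones by selection, while the 2990 and 2980 include shared ones, so these shares are not like for like. The contacts that enter the value did not all move one way. Contacts across the boundary over expected, before the flanks are taken into account, were higher in CTCF siRNA at 61.02, 62.54 and 71.18 Mb. At 61.02 Mb they went from 0.290 to 0.739, at 62.54 Mb from 0.332 to 0.365 and at 71.18 Mb from 0.112 to 0.169. They were lower at the other 5, as at 64.70 Mb, where they went from 0.538 to 0.335 while those within the flanks went from 0.604 to 0.287. These are values without balancing and without a counting error. At 62.54 Mb they rest on 71 and 294 contacts, and at 71.18 Mb on 24 and 136. Between the 5 neighbouring pairs of inner TADs, contacts over expected were higher in CTCF siRNA at 2 with counts and at 4 with balanced counts. The 2 changes with counts were 0.036 ± 0.080 and 0.00038 ± 0.12 (log2, counting SD), and both counting intervals took in 0. The direction of contacts across a boundary can thus rest on the scaling.

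Without balancing, the largest changes stood at both ends of the row. At 71.18 Mb, between the KLHL1 and DACH1 TADs, the value went from -1.73 to 0.14, a change of 1.87 ± 0.34 (counting SD). There 24 contacts crossed the bin in control against 214 expected, and 136 crossed in CTCF siRNA against 805 expected. At 61.02 Mb, a boundary that lies inside TDRD3, the value went from -1.87 to -0.20, a change of 1.67 ± 0.20, and the contacts across it from 62 of 214 expected to 595 of 805 expected. This boundary separates the start of TDRD3 and DIAPH3 on its left from PCDH20 on its right.

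At 70.04 Mb, left of KLHL1, the value went from -1.36 to -0.10, a change of 1.26, and with balanced counts the change there, 1.502, was above the 1.45 at 61.02 Mb. With flanks of 200 kb it was 0.56, against 1.89 at 61.02 Mb. At 62.54 Mb, the inner boundary with a CTCF core match, the value went from -1.35 to -0.34. The boundaries at 64.70 and 65.02 Mb, which flank a gap between TADs, were already weak in control, at -0.17 and -0.52, and stood at 0.23 and 0.25 in CTCF siRNA. With balanced counts the change at 64.70 Mb was near 0, at -0.0021. At 67.90 Mb, 95 kb from the start of PCDH9, the value went from -0.98 to -0.35. The boundary at 68.18 Mb went from -1.03 to -0.77, a difference of 0.27 ± 0.26 that its counting interval does not separate from 0. With flanks of 200 kb its change was 0.60.

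**Figure D2:**
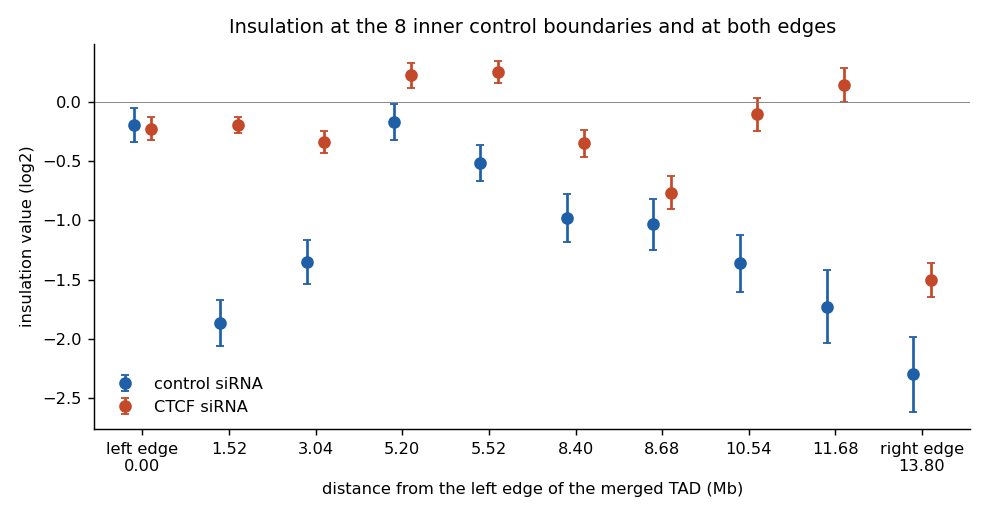
Insulation values (log2, vertical axis) with their counting SD at the 8 inner control boundaries and at both edges of the merged TAD, by distance from its left edge (Mb), in control siRNA (blue) and CTCF siRNA (red). The left edge is near 0 in both maps, at -0.19 and -0.22, and the right edge is the lowest point of both.

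The edges of the merged TAD differed from each other. At the right edge, 73.30 Mb, insulation went from -2.30 to -1.50, a change of 0.80 ± 0.35, and 22 contacts crossed it in control against 214 expected. This edge lies among MZT1, BORA, an activator of Aurora A, and DIS3, a nuclease of the RNA exosome, and the control boundary of 73.32 Mb that it matches holds the CTCF core match shown above. At the left edge, 59.50 Mb, 740 kb from the nearest gene, DIAPH3, insulation stood at -0.19 ± 0.14 with control siRNA and -0.22 ± 0.10 with CTCF siRNA. The nearest control boundary lay 1320 kb away. The CTCF siRNA list held no TAD in the 5.72 Mb before this edge.

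Local minima of insulation that reached -0.5 were counted along the profile without use of the TAD lists. The merged stretch held 9 in control and 1 in CTCF siRNA, or 0.652 and 0.0725 per Mb. The genome held 1.18 per Mb in control and 0.732 in CTCF siRNA. Of the 9 control minima, 6 lay within 40 kb of a listed boundary, and the others stood at 59.90, 62.98 and 66.22 Mb. The single CTCF siRNA minimum was that at 68.18 Mb. Both maps were used at full depth and without balancing for this count, and the part of their unequal depth in it was not tested.

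The boundary at 68.18 Mb coincided with a step in coverage present in both maps. From position 68200001 to position 76000000, the median contacts of a bin with other chromosomes stood at 0.493 of the chromosome's median in control and 0.481 in CTCF siRNA. In the 3 Mb to its left the shares were 0.938 and 0.934, and in the 3 Mb to its right 1.04 and 1.01. GC content was 35.9% in the stretch, 34.7% to its left and 37.6% to its right. The stretch takes in the gene-free TAD, KLHL1, DACH1 and the right edge, so values there rest on fewer contacts. Bins just outside its left and right ends were in contact with each other. Bins of 67600001 to 68120000 and of 76000001 to 76520000 shared 132 contacts in the control map, or 23.7 times the expected number, with an exact Poisson 95% interval of 19.8 to 28.1. In the CTCF siRNA map they shared 348, or 20.8 times the expected number, with an interval of 18.7 to 23.1. With balanced counts the values were 23.5 and 30.8. Just inside the stretch, at 75480001 to 76000000, the bins of 67600001 to 68120000 had 4 and 9 contacts. These were 0.700 and 0.546 times the expected number, or 1.75 and 1.25 with balanced counts. The bins at 68120001 to 68640000, on the other side of the left step, shared 19 and 20 contacts with those of 76000001 to 76520000, 3.61 (2.17 to 5.63) and 1.32 (0.806 to 2.04) times the expected number. Balanced values for these were 4.62 and 3.98. Across the left step, 67600001 to 68120000 with 68200001 to 68720000, contacts were 0.218 and 0.217 times the expected number. There balanced counts gave 0.338 and 0.662, so whether contacts across the step changed rests on the scaling. Copy number and rearrangement were not measured, and their part in the boundary at 68.18 Mb was not tested.

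**Figure D3:**
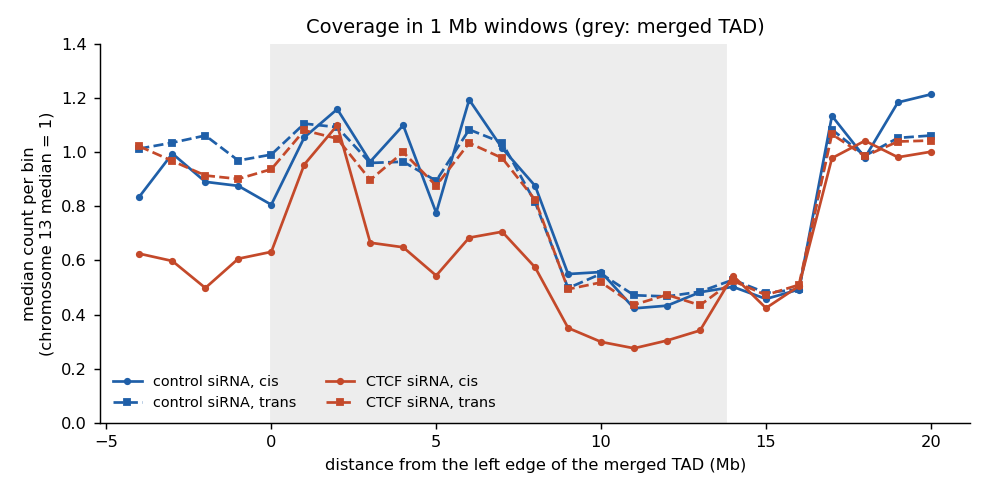
Median contacts per usable 40 kb bin in windows of 1 Mb, relative to the chromosome 13 median (vertical axis), within the chromosome (solid) and with other chromosomes (dashed), by distance from the left edge of the merged TAD (Mb). The contacts with other chromosomes drop together in both maps between 8 and 16 Mb, while those within the chromosome are lower in CTCF siRNA than in control over most of the merged TAD.

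Insulation values at the control boundaries were higher in CTCF siRNA left and right of the step. At the 5 boundaries left of it the median change was 0.77 (0.39 to 1.67), and at the 2 right of it the changes were 1.26 and 1.87. Without the boundary at 68.18 Mb the median over the remaining 7 was 1.01.

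Contacts over expected between neighbouring former TADs, relative to contacts over expected within them, rose at 4 of the 5 pairs by at least 0.5 on the log2 scale, against 35.3% of 2495 neighbouring control TADs of the genome. The median change was 0.81, and over the genome 0.36 (interquartile range 0.13 to 0.61). The 5 pairs were selected as joined in the CTCF siRNA list and the genome pairs were not, so these values are not like for like. The KLHL1 and DACH1 TADs changed most, from -1.09 to -0.06, a change of 1.03 ± 0.13 with 180 contacts between them in control and 671 in CTCF siRNA. The PCDH20 TAD and its right neighbour changed by 0.94 ± 0.08, from -1.03 to -0.09. The gene-free TAD and the KLHL1 TAD changed by 0.81 ± 0.12, and the PCDH9 TAD and the gene-free TAD by 0.50 ± 0.12, or 0.37 with balanced counts. The TAD of DIAPH3, which reached into the merged stretch, and the PCDH20 TAD changed by 0.97 ± 0.07.

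The exception was the pair at 62.54 to 64.70 and 65.02 to 67.90 Mb, on both sides of the gap between TADs. Contacts over expected between these TADs were higher than within them already in control, at 1.65 against 0.910 and 0.882, or by 0.88 on the log2 scale, and stood at 0.68 in CTCF siRNA, a change of -0.20 ± 0.06. With balanced counts the fall lay in a segment of 0.44 Mb without a protein-coding gene, at 62.54 to 62.98 Mb, which was picked on the contact map after its values were seen. In control it shared 350 contacts with the PCDH9 TAD, which is 5.38 times the expected number (4.83 to 5.98 by counting error). In CTCF siRNA it shared 208, which is 1.097 times the expected number (0.953 to 1.26), although that map held more contacts in all. With balanced counts the values were 5.87 and 2.20. The rest of the same TAD, at 62.98 to 64.70 Mb, stood at 1.25 and 0.653, or 1.34 in both maps with balanced counts. The segment is bounded by the boundary at 62.54 Mb and by the control minimum at 62.98 Mb, and its coverage was like that of the rest of its TAD, with a median of 194 against 195 contacts within the chromosome per bin in control and 344 against 349 in CTCF siRNA.

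**Figure D4:**
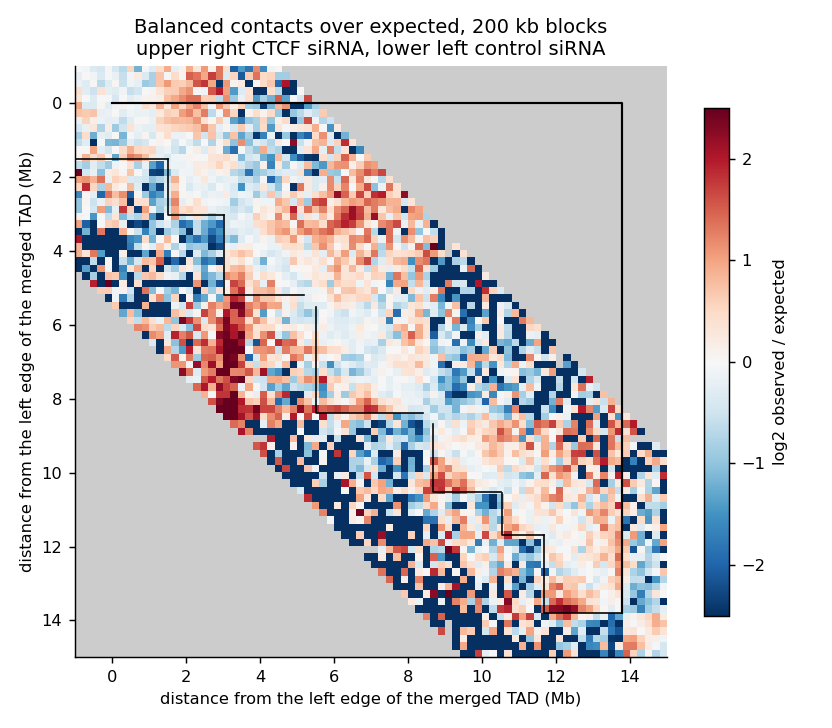
Balanced contacts over expected (log2, colour) in 200 kb blocks by distance from the left edge of the merged TAD (Mb, both axes), control siRNA in the lower left and CTCF siRNA in the upper right, with black lines around the called TADs and grey where under 1 control contact was expected. The dark stripe near 3 Mb in control is the segment whose contacts with the PCDH9 TAD went from 5.87 to 2.20 times the expected number with these balanced counts.

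A corner of the DACH1 TAD changed in the same direction. Contacts between 71.50 to 72.10 Mb, which reaches the end of DACH1, and 72.90 to 73.30 Mb next to the right edge stood at 2.02 times the expected number in control (1.68 to 2.40) and 0.662 times in CTCF siRNA (0.562 to 0.775), with 125 and 155 contacts. Balanced values were 3.64 and 1.76. This window, too, was picked after its values were seen, and the fall was not limited to it. Its neighbour at 71.18 to 71.50 Mb had 27 and 34 contacts with the same bins, 1.44 and 0.493 times the expected number, or 3.28 and 1.98 with balanced counts.

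Farther pairs of former TADs were not higher in CTCF siRNA as a group. Over the 10 pairs that are not neighbours, contacts stood at 0.788 times the expected number in control (0.737 to 0.843) and 0.413 times in CTCF siRNA (0.391 to 0.436), and all 10 were lower in CTCF siRNA. With balanced counts they stood at 1.11 and 1.07, and 8 of the 10 were lower. Of these 10 pairs, 8 join a TAD left of the coverage step at 68.18 Mb to one right of it, and the part of the step in their values was not tested. The pairs that do not cross it went opposite ways with balanced counts. The PCDH20 and PCDH9 TADs went from 2.36 to 1.99 and the gene-free and DACH1 TADs from 1.097 to 1.498. The 5 neighbouring pairs together stood at 0.600 and 0.384 times the expected number, and with balanced counts at 0.810 and 1.03, where 4 of the 5 were higher. Among the farther pairs, the PCDH20 TAD and the PCDH9 TAD were in most contact, at 2.38 times the expected number in control and 1.25 times in CTCF siRNA. Across the step, the PCDH20 TAD and the gene-free TAD had 58 contacts in control and 53 in the deeper CTCF siRNA map, 0.98 and 0.30 times the expected number, or 1.45 and 0.752 with balanced counts. Over all 15 pairs the change was -0.72 (log2) with counts and 0.23 with balanced counts, so its direction rests on the scaling.

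**Figure D5:**
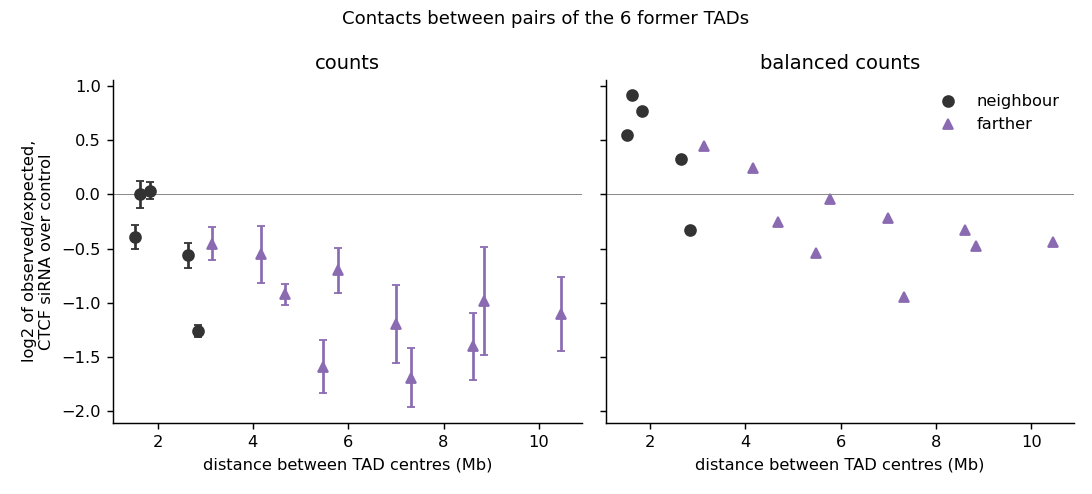
Change of contacts over expected between pairs of the 6 former TADs (log2 of CTCF siRNA over control, vertical axis) by distance between their centres (Mb), with counts and counting SD on the left and balanced counts on the right. Every farther pair lies below 0 with counts, and with balanced counts 4 of the 5 neighbouring pairs lie above 0.

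By distance, contacts within the merged TAD were set against the mean of chromosome 13 at the same distance, with balanced counts. From 1 to 2 Mb apart they stood at 1.29 times the expected number in control and 1.28 in CTCF siRNA. From 2 to 5 Mb they stood at 1.31 and 1.21, and over 5 Mb at 1.11 and 0.836. These values take in pairs that lie on both sides of the coverage step at 68.18 Mb. Among pairs left of the step, contacts from 2 to 5 Mb apart stood at 1.71 times the expected number in control and 1.38 in CTCF siRNA, and those over 5 Mb apart at 1.93 and 1.49. Among pairs right of it, contacts from 1 to 2 Mb apart stood at 1.59 and 1.53, and those from 2 to 5 Mb apart at 1.19 and 1.54, with 161 and 372 contacts. Without balancing, the latter stood at 0.516 (0.439 to 0.602) and 0.363 (0.327 to 0.402), so the direction at this distance rests on the scaling.

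Contacts of the merged TAD with the 2 Mb on each side went from 0.571 to 0.387 times the expected number, a change of -0.56 (log2), and with balanced counts from 0.845 to 0.864. On the left they stood at 0.853 and 0.506, or 1.101 and 1.04 with balanced counts. On the right they stood at 0.288 and 0.267, or 0.588 and 0.689 with balanced counts. The right flank was thus less in contact with the merged TAD than the left in both maps and under both scalings. It lies wholly within the stretch of low coverage, and the part of that in the difference between flanks was not tested.

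The named genes stood at different places relative to these boundaries, and each gene's start was followed in both maps. Contact shares pool the bin of the start with the bins next to it on both sides. The shares were taken from counts without balancing, and the expected shares rest on distance and not on coverage. Insulation values are those of the bin of the start alone. For TDRD3 the bin on the right is that of the boundary at 61.02 Mb. PCDH17 (58.21 to 58.30 Mb) lies outside the merged TAD and outside the member bins, 26 kb from the control boundary at 58.18 Mb. Contacts of its start within 2 Mb fell inside its control TAD at 67.3% in the control map (61.3 to 72.8%, Wilson 95% interval) and at 53.8% after CTCF siRNA (49.3 to 58.3%), where distance alone gives 50%. TDRD3 (60.97 to 61.15 Mb), whose start lies 49 kb left of the boundary within the gene, went from 63.4% (58.1 to 68.5%) to 52.2% (49.5 to 54.9%), with 50% expected. PCDH9 (66.88 to 67.80 Mb), which reads leftwards from a start 95 kb from the boundary at 67.90 Mb, went from 74.9% (69.7 to 79.5%) to 59.7% (55.4 to 63.9%), with 50.4% expected. The 2 Mb right of the PCDH9 start reach into the stretch of low coverage, whose part in both of its shares was not tested. These 3 starts lay nearest to a control boundary.

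The other starts lay farther from a boundary, where distance alone gives a larger share in the own TAD. The expected shares in control were 71.7% for DIAPH3, 76.204% for PCDH20, 68.3% for KLHL1 and 85.9% for DACH1. DIAPH3 (60.24 to 60.74 Mb), 282 kb from a boundary, went from 87.4% (83.0 to 90.8%) to 75.7% (72.9 to 78.3%), and PCDH20 (61.98 to 61.99 Mb) from 84.7% (81.0 to 87.8%) to 74.7% (72.0 to 77.2%). The PCDH20 share in CTCF siRNA was at the 75.9% given by distance. KLHL1 (70.27 to 70.68 Mb) went from 77.4% (70.5 to 83.2%) to 63.7% (58.3 to 68.8%), with 67.7% expected in CTCF siRNA. DACH1 (72.01 to 72.44 Mb), 859 kb from a boundary, went from 94.0% (90.1 to 96.5%) to 87.2% (83.3 to 90.3%), with 85.9% expected. The share was lower in CTCF siRNA at all 7 genes, against 82.9% of 15375 protein-coding gene starts in control TADs of the genome, where the median change was -5.60 percentage points (interquartile range -9.96 to -1.64). For DACH1 the intervals of the maps overlapped. The other 3 genes with a start in these TADs were lower too, ENSG00000197991 from 86.4 to 74.0%, ENSG00000237378 from 75.6 to 72.4% and ENSG00000285566 from 73.8 to 68%, and for the latter pair the intervals overlapped.

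Insulation at the same starts rose by at least 0.5 at 1 of the 7, against 12.9% of 61475 usable bins of the genome and 14.5% (58) of the region bins. That gene was TDRD3, with a change of 1.18 ± 0.18. PCDH9 changed by 0.48 ± 0.21 and PCDH17 by 0.44 ± 0.18. DIAPH3 changed by -0.34 ± 0.13 and PCDH20 by -0.28 ± 0.14, both from values above 0 in control. With flanks of 200 kb the change at PCDH20 turned to 0.23, that at DIAPH3 was -0.76 and PCDH9, at 0.52, passed 0.5 as well, so that 2 of the 7 rose by that much, against 13.4% of 61648 usable bins of the genome. With flanks of 800 kb DIAPH3 stood at -0.029. KLHL1 changed by -0.17 ± 0.22 and DACH1 by -0.11 ± 0.22, within their counting error. No expression was measured in these libraries.

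TADs were also called anew, with a hidden Markov model of 3 states on a directionality index that compares upstream with downstream contacts up to 2 Mb away. The control map gave 6 TADs inside the merged stretch. The CTCF siRNA map gave a mean of 3.6 over 5 random thinnings to the control's total and 1 at full depth. At full depth 2 TADs overlapped the stretch, and the longer ran from 53800001 to 68160000, so that it reached left of the edge at 59.50 Mb and ended next to the boundary of 68.18 Mb. With runs of a state under 3 bins ignored, the full-depth map gave 1 TAD over the stretch, from 53800001 to 73320000, past the boundary of 68.18 Mb. Thinned so that the region itself matched the control in contacts, the CTCF siRNA map gave a mean of 1.2 inside. Of the 27 CTCF siRNA calls under all settings and thinnings, 25 had an edge within 40 kb of the right edge at 73.30 Mb and 0 had one within 40 kb of the left edge at 59.50 Mb. Of the 4 control calls, 1 had an edge at the right edge, the one with a window of 1 Mb, and 0 had one at the left edge. The calls of a condition all come from 1 pooled map and are not separate observations. The deposited control list itself had a TAD end at 73.30 Mb.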

How the data were processed

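Hi-C libraries were cut with BglII. Per the methods and the submitters' processing notes, the authors checked reads with FastQC 0.11.2, mapped them to hg19 with Bowtie 1.1.0 through HiCUP, sorted them with SAMtools 1.2 and tagged duplicates with Picard 1.121. The authors pooled the libraries of a condition, counted pairs in 40 kb bins and called TADs with a directionality index and a hidden Markov model. The deposited contact values are read-pair counts, multiplied between positions 9400001 and 48120000 of every chromosome by a factor per bin. Dividing by it gave whole counts, within 0.0101 plus 0.05% of the deposited value, for 100% and 99.9957% of the pairs whose factor exceeded 4 times that tolerance, against 2.46% and 2.75% if random. All values of the region were exactly whole as deposited. The deposited TAD lists give start and end positions. What separates the CTCF siRNA libraries numbered as further versions of a replicate is not stated.

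Groups followed the siRNA named in each label. The members, gene list and comparisons were chosen with earlier results of these data known. Bins were usable with at least 10% of their chromosome's median contacts in both maps. Edges at most 100 kb apart formed 1 boundary, and boundaries within 40 kb were shared. The expected count was the mean over usable bin pairs at the same distance on the chromosome. Counting SDs came from the Poisson error of the counts, with exact Poisson intervals for counts and Wilson intervals for shares. They cover counting error only, since read pairs carry no molecular identifiers. Named genes were 7 fixed genes and every other protein-coding gene overlapping the merged TAD. Python 3.11.15, numpy 2.4.6 and hmmlearn 0.3.3 were used, with GENCODE on GRCh37, whose chromosome lengths fit the maps on all 23 chromosomes used. Insulation and TAD calling were tested on simulated maps, where the caller split a uniform merged TAD into several. A rule that ignores runs of a state under 3 bins was added after this and is given as an alternative. No test between conditions was made.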

Additional observations from a re-analysis of the deposited data

How the results depend on the processing

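No paired analysis was possible because each condition's libraries had been pooled into 1 map, and leaving out a replicate was not possible for the same reason. The counts of 6 control TADs and 8 boundaries held with edges matched within 0 or 80 kb. The insulation changes at both edges stayed within their counting intervals under every alternative run. For the median insulation change at the 8 boundaries, the interval used was as wide as that of a single boundary (0.46 to 1.32). For the median change between neighbouring former TADs it was as wide as that of a single pair. Both medians stayed within these intervals, which are wider than the counting error of a median. With flanks of 200 kb the median at the 8 boundaries was 0.63, in place of 0.89. The change over all pairs of former TADs was 0.23 with balanced counts, in place of -0.72, and -0.81 with the expected value from the chromosome without the region. The change of contacts with the flanks was 0.033 with balanced counts and -0.46 with flanks of 1 Mb, in place of -0.56. The difference in TADs called anew was -2.4, and -5 at full depth, -5 without balancing, -5 with a window of 1 Mb and -4.8 after thinning CTCF siRNA contacts to the region's count in control, a setting chosen after seeing the data. Ignoring short runs of a state, also chosen then, gave -3. The count takes only TADs inside the stretch, so it also falls where a call reaches beyond it. Without balancing, each CTCF siRNA thinning gave 0 TADs inside and 1 that overlapped the stretch, of 18.04 to 22.96 Mb. Among single positions, the change at 64.70 Mb turned from 0.39 to -0.0021 with balanced counts and that at the start of PCDH20 from -0.28 to 0.23 with flanks of 200 kb. With flanks of 200 kb the changes also moved to 0.56 at 70.04 Mb, 2.61 at 71.18 Mb, -0.76 at the start of DIAPH3, 0.78 at TDRD3 and 0.45 at DACH1, and that at PCDH9, 0.52, then passed 0.5. Among the boundaries, 68.18 Mb (0.60) and 64.70 Mb (0.58) then passed 0.5 and 65.02 Mb (0.43) no longer did, so that 7 of the 8 passed it in place of 6. With flanks of 800 kb DIAPH3 stood at -0.029. The cause was not tested in any of these cases. Depth limits the right part most, where 24 control contacts crossed the bin at 71.18 Mb.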

Other observations

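The next longest CTCF siRNA TAD, of 9.12 Mb at 82860001 to 91980000 of chromosome 13, held 3 control TADs and 3 protein-coding genes, with 34.7% GC. Its 4 inner control boundaries had a median insulation change of 0.97. The 10 longest ran from 5.92 to 13.8 Mb, and 8 of the 10 lay on chromosomes 13, X and 4. Their GC content ranged from 34.7% to 41.3% and their protein-coding genes from 0.167 to 4.56 per Mb. The chromosome 9 TAD, at the upper end of both, had 38 usable bins of 148. The longest control TAD on the chromosomes used was 5.72 Mb. Another CTCF siRNA TAD also held 6 control TADs.

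Along the chromosome, compartments were similar in both maps. The first eigenvector of distance-corrected contacts in 480 kb bins, with its sign set by gene density, correlated at 0.931 between the maps over 199 bins of chromosome 13, which share the same chromosome and base composition. In the merged TAD, 21 of 28 bins were negative in control and 24 in CTCF siRNA, against 47.7% and 50.8% of the chromosome's bins.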
